A study of Mus musculus with 13 samples.

Results

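The 9 genes described here encode the intermediate filament proteins of neurons, neural progenitors and glia: Nefl, Nefm, Nefh, Ina, Prph, Vim, Nes, Gfap and Synm. They were taken by name from the authors' deposited comparison of Ikzf1 with control, where all 9 of the names were found once among 35734 genes, and all 9 passed the filter on low counts that left 15598 genes to test. The set was chosen by gene family, and it was selected on measured values too, since the log2 fold changes and levels of this same comparison were known when it was put together. The differences of these genes between the groups are therefore given as a description, with no test of their own.

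The libraries came from CD1 mouse retinas of postnatal day 0, which hold late retinal progenitors and newborn neurons. Dissociated cells were transfected, kept in adherent culture for 9 h and sorted for GFP. The 4 control libraries came from cells labelled GFP, with 400000 sorted cells each, and the 4 Ikzf1 libraries from cells labelled Ikzf1-IRES-GFP, with 300000 sorted cells each. Ikaros, the product of Ikzf1, is a DNA-binding zinc finger protein, and the IRES lets GFP be made from the same transcript. Both groups were thus transfected, cultured and sorted, and the number of sorted cells differed with the group. The labels call the libraries of a group biological replicates and do not give the number of animals behind each. They name the CAG promoter for retinal explants of the same study, and the promoter used in these cultured cells is not given in the sources used here.

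Intermediate filaments are rope-like polymers of the cytoskeleton, built from rod-shaped proteins whose make-up changes as a cell matures. Neural progenitors and radial glia carry vimentin together with nestin and synemin, and nestin does not form filaments without a partner such as vimentin. Young neurons switch to alpha-internexin and then to the neurofilament proteins, of which the light chain forms the core and the medium and heavy chains carry long side arms. In the retina, neurofilaments are known above all from ganglion cells and their axons and from horizontal cells, vimentin from progenitors and Müller glia, and GFAP from astrocytes and stressed Müller glia.

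The sequences just before the start of genes from both directions of change are shown because 3 genes that were lower with Ikzf1 and 2 that were higher can be set side by side. They are the 250 bases before the start site that the RefSeq promoter table uses for each gene, 5′ to 3′ on the strand of the gene, with the letters GGGAA or their reverse complement in capitals. GGGAA is the core of the DNA sequence that Ikaros proteins are known to bind.
Vim (GRCm38.p6, chr2:13574061-13574310, plus strand): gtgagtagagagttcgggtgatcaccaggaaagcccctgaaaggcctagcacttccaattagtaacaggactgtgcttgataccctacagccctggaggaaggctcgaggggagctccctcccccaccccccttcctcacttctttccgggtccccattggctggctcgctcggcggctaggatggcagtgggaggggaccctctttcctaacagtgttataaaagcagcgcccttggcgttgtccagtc
Nes (GRCm38.p6, chr3:87970843-87971092, plus strand): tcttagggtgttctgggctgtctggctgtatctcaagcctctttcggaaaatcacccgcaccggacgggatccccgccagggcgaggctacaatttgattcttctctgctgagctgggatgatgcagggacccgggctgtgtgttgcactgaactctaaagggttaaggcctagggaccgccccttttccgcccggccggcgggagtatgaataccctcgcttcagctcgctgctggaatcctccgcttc
Synm (GRCm38.p6, chr7:67759743-67759992, minus strand): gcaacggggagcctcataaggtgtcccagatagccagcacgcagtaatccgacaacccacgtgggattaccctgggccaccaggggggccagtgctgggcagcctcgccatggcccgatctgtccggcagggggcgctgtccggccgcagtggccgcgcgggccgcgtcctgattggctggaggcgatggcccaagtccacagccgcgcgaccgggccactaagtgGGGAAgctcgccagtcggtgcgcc
Ina (GRCm38.p6, chr19:47014431-47014680, plus strand): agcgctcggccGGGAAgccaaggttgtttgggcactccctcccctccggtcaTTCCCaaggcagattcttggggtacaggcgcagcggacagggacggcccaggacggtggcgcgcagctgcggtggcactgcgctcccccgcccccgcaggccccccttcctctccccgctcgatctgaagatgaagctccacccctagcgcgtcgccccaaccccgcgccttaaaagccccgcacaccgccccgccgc
Prph (GRCm38.p6, chr15:99054924-99055173, plus strand): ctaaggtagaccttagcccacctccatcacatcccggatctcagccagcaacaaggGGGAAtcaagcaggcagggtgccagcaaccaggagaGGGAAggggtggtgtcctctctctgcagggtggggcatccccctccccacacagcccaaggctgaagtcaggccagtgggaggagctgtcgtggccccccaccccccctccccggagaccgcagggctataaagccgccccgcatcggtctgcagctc
GGGAA on either strand had no match upstream of Vim and Nes, 1 match upstream of Synm and 2 each upstream of Ina and Prph. Of the 9 genes, 6 had an entry in the promoter table, and Gfap, the sixth, had 2 matches. Nefl, Nefm and Nefh had no entry. At least 1 match was thus found for 4 of the 6 genes, and in 56.2% of 32851 such windows of all genes. How many windows hold 2 matches was not counted, and nothing is read from the number of matches by direction of change. The longer form TGGGAA, which contains GGGAA, occurs in 21.6% of windows and was matched once upstream of Ina, 198 bases before the start, and once upstream of Gfap. TATAAA, searched on both strands, occurs in 12.4% of windows. It was matched 32 bases before the start of Vim and 31 bases before that of Prph. A match describes the letters only, and binding at these places was not analysed here. The start sites used for Vim, Nes and Gfap lie inside the spans of these genes in the deposited table, so those windows overlap the spans in whole or in part. For Prph the start site used, at the start of the deposited span, lies inside the longer span of the RefSeq gene, which begins at 99053579, and the distances given for Prph are from the site used.

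The libraries held 21405714 to 30510321 estimated read pairs. In the controls, 0.00723 to 0.00910% of the reads were from Ikzf1, and 15.9 to 17.2% in the other group, matching the labels of all 8 libraries. Mitochondrial genes took 2.43 to 2.95% of the reads in the controls and 2.18 to 2.51% with Ikzf1. The groups were split by the first principal component (66.6% of the variance), and no library stood with the other group. Levels are given below in CPM, the count scaled to a common library size by TMM, which compares a gene between libraries. TPM, which also divides by transcript length, is used to compare genes with each other. The Ikzf1 reads lower the TPM of other genes, and the median tested gene moved by -0.23 on the log2 scale of TPM against 0.00 in the fit on scaled counts.

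Markers of retinal progenitors, the cell type given in the labels, were expressed in both groups, with 12 of 12 tested. Their summed level was 1974 to 2096 CPM in the controls and 1768 to 1781 CPM with Ikzf1, and Ccnd1, a cyclin that drives entry into the cell cycle, was the highest of them in controls. Neuronal and photoreceptor markers were present as well, so the libraries held RNA of more than progenitors. In these mixed libraries, fewer cells of a type and less RNA per cell cannot be told apart.

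With Ikzf1, the progenitor genes Vim and Nes and their partner Synm were lower, Gfap was low in both groups, and the neuronal genes went in both directions: Nefl and Nefm were lower and Nefh, Ina and Prph higher. Of the 9 genes, 5 were lower and 3 were higher past an edgeR adjusted p of 0.05, where 59.4% of all tested genes passed, 30% lower and 29.4% higher. Differences of at least 1 on the log2 scale were found for 5 genes among the lower ones and for 1 among the higher ones, against 6.41% and 4.89% of all tested genes. In CPM, the 4 Ikzf1 libraries all lay on one side of the 4 controls in all 9 genes. The same held for 53.2% of all tested genes. In TPM the groups overlapped for Prph, at 10.63 to 11.42 in the controls and 11.29 to 15.8 with Ikzf1. They also overlapped for Gfap, at 0.8948 to 3.825 and 0.9423 to 3.213. Since the genes were chosen with this contrast known, nothing is read from these shares.

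**Figure D1:**
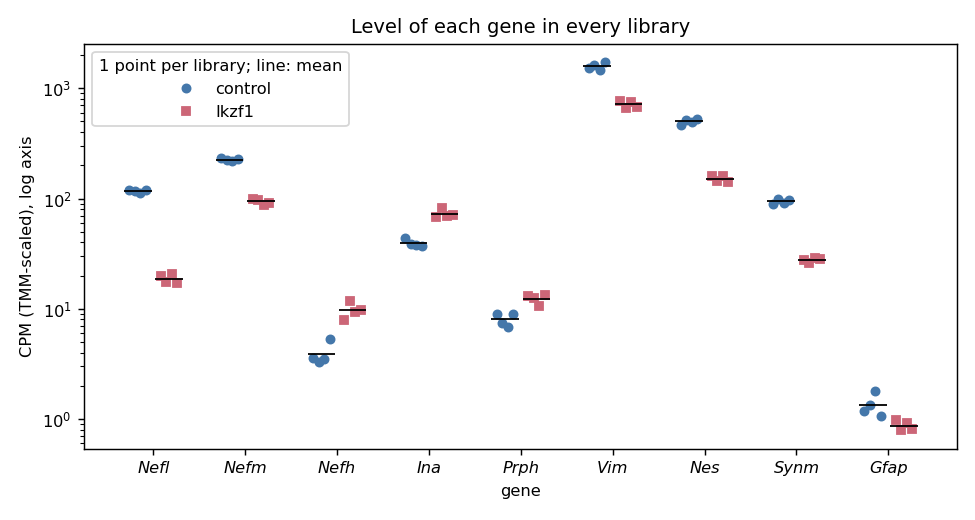
Level of each gene in CPM on a log axis, with 1 point per library (circles for the 4 control libraries, squares for the 4 Ikzf1 libraries) and a line at the mean of each group. Nefl, Nefm, Vim, Nes and Synm sit lower in the Ikzf1 libraries and Nefh, Ina and Prph higher, while Gfap lies near 1 CPM in both groups.

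Nefl encodes the neurofilament light chain, the core subunit of the neurofilament (ENSMUSG00000022055, GRCm38 chromosome 14, 68083863 to 68089095, plus strand, protein-coding). Nefl stood at 119.5, 117.5, 112.9 and 118.4 CPM in control replicates 1 to 4 and at 19.82, 17.48, 20.77 and 17.02 CPM in Ikzf1 replicates 1 to 4. Every Ikzf1 library lay far below every control, and the spread within either group was small beside the gap between them. The mean went from 117 ± 2.91 to 18.8 ± 1.81 CPM (SD, n = 4 each), which is 6.24-fold lower by the fitted log2 fold change of -2.64 (standard error 0.06). Nefl had the largest difference of the 9 genes under TMM scaling, and only 56 of the 15598 tested genes had a lower fold change.

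Nefm encodes the medium chain, one of the neurofilament subunits with a phosphorylated side arm (ENSMUSG00000022054, GRCm38 chromosome 14, 68082590 to 68124846, minus strand, protein-coding). Nefm stood at 234.1, 221.6, 217.5 and 229.6 CPM in control replicates 1 to 4 and at 98.72, 97.95, 88.02 and 91.39 CPM in Ikzf1 replicates 1 to 4. The groups are well apart, with a fitted log2 fold change of -1.26 (standard error 0.05), less than that of Nefl. The mean went from 226 ± 7.53 to 94.0 ± 5.18 CPM (SD, n = 4 each).

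Nefl and Nefm are neighbours on opposite strands, and in the authors' deposited table the span of Nefm covers the whole of Nefl, 5233 bases. In RefSeq (GRCm38.p6) Nefm spans only 68119545 to 68125004 and does not reach Nefl. The library kit keeps strand, but whether the counting used it is not given in the sources used here. The gene sums were therefore taken apart by transcript. All Nefl reads were assigned to 1 transcript of 3380 bases. Nefm had 2 transcripts with reads, and the one of 3334 bases held 99.1 to 99.7% of its reads in the controls and 99.4 to 99.9% with Ikzf1. That transcript alone had a log2 ratio of -1.26, equal to the gene sum to 2 decimals. The other, of 3680 bases, held 54, 31, 34 and 23 reads in the controls and 9, 7, 13 and 1 in the Ikzf1 libraries, against 2699 to 3425 and 400 to 522 reads of Nefl. The files do not give the positions of single transcripts, so which of the 2 crosses Nefl was not tested.

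Nefh encodes the heavy chain, the last of the 3 classical neurofilament subunits to appear as axons mature (ENSMUSG00000020396, GRCm38 chromosome 11, 4938754 to 4948064, minus strand, protein-coding). Nefh stood at 3.556, 3.308, 3.514 and 5.289 CPM in control replicates 1 to 4 and at 7.945, 11.71, 9.271 and 9.794 CPM in Ikzf1 replicates 1 to 4. Every Ikzf1 library was above every control, although the highest control, replicate 4, stood apart from the other 3. The fitted log2 fold change was 1.296 (standard error 0.15), on 76 to 153 reads per control and 188 to 278 per Ikzf1 library. The light and heavy chains thus differed in opposite directions. Without control replicate 4 the log2 fold change of Nefh was 1.48.

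Ina encodes alpha-internexin, the neuronal filament protein that precedes the neurofilament chains in young neurons (ENSMUSG00000034336, GRCm38 chromosome 19, 47014698 to 47025327, plus strand, protein-coding). Ina stood at 43.81, 38.91, 38.08 and 37.02 CPM in control replicates 1 to 4 and at 67.83, 81.65, 69.87 and 70.88 CPM in Ikzf1 replicates 1 to 4. The lowest Ikzf1 value lay above the highest control value, which was that of replicate 1. The fitted log2 fold change was 0.88 (standard error 0.06), a 1.84-fold higher level. The first 456 bases of Ina overlap Nt5c2 on the other strand, a gene with 60.4 CPM in the controls and 80.0 CPM with Ikzf1 (0.41 on the log2 scale), and the part of shared reads in the Ina value was not tested.

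Prph encodes peripherin, a filament protein best known from peripheral neurons (ENSMUSG00000023484, GRCm38 chromosome 15, 99055174 to 99058978, plus strand, protein-coding). Prph stood at 9.008, 7.487, 6.883 and 8.953 CPM in control replicates 1 to 4 and at 13.02, 12.59, 10.54 and 13.35 CPM in Ikzf1 replicates 1 to 4. The groups do not overlap, but the gap between them, from 9.008 to 10.54 CPM, is smaller than the range within either group. The fitted log2 fold change was 0.61 (standard error 0.11). Of its 4 transcripts with reads, the one of 1757 bases held 49.7 to 86.6% of the reads in the controls and 67.7 to 89.4% with Ikzf1, and its log2 ratio alone was 0.68. The remaining reads moved between transcripts from library to library within a group, so only the gene sum is compared.

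**Figure D2:**
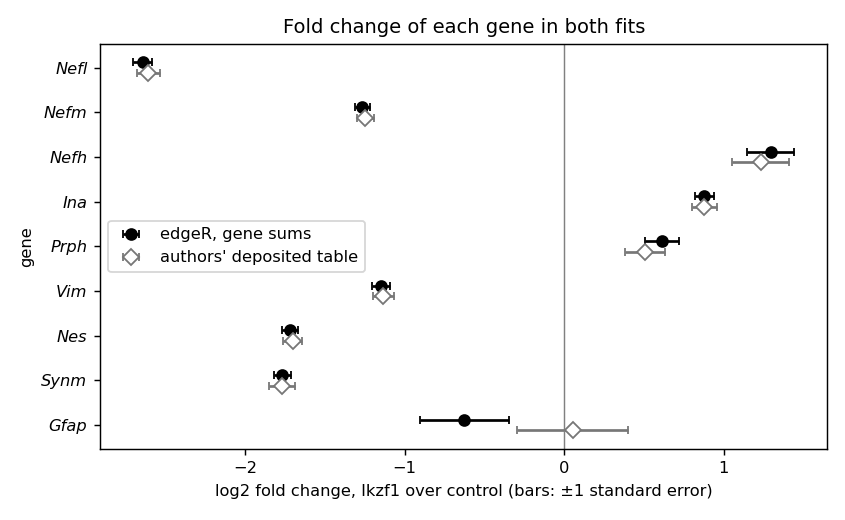
Log2 fold change of Ikzf1 over control for each gene, with bars of 1 standard error, from the edgeR fit on gene sums (filled circles) and from the authors' deposited table (open diamonds). Both place Nefl lowest, near -2.6, and Nefh highest, and they part for Gfap, at -0.63 and 0.05.

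Because TPM allows genes to be compared, the 5 neuronal genes can be read as a mixture. In the controls Nefm made up 55.9% ± 0.349 of their summed TPM, Nefl 28.6% ± 0.331, Ina 10.1% ± 0.591, Prph 4.62% ± 0.222 and Nefh 0.803% ± 0.183 (SD, n = 4). In the Ikzf1 libraries Nefm stood at 42.4% ± 1.26, Ina at 33.7% ± 1.92, Prph at 11.96% ± 1.57, Nefl at 8.37% ± 1.09 and Nefh at 3.61% ± 0.492 (SD, n = 4). No share overlapped between the groups. The controls thus held a mixture led by Nefm and Nefl, and the Ikzf1 libraries one led by Nefm and Ina. Each share also depends on the levels of the other genes in the sum. Prph itself was at 11.1 ± 0.347 TPM in the controls and 13.6 ± 1.95 TPM with Ikzf1 (SD, n = 4 each), with groups that overlap. The ratio of Nefl to Ina in TPM was 2.61 to 3.06 in the controls and 0.205 to 0.284 with Ikzf1. The ratio of Nefl to Nefm was 0.504 to 0.523 and 0.176 to 0.233. The summed TPM of the 5 genes was 234 to 247 in the controls and 107 to 120 with Ikzf1, on a scale on which the median gene was also lower.

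**Figure D3:**
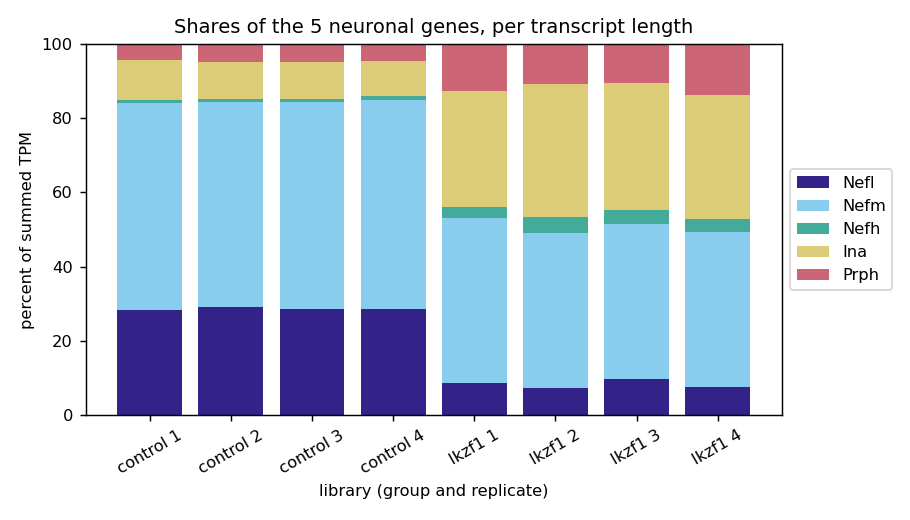
Stacked bars of the percent that each of the 5 neuronal genes takes of their summed TPM, 1 bar per library (4 control, then 4 Ikzf1). Nefl takes 28.2 to 29.0% in the controls and 7.36 to 9.73% with Ikzf1, while Ina goes from 9.36 to 10.8% to 31.3 to 35.9%.

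Vim encodes vimentin, the main filament protein of progenitors and Müller glia (ENSMUSG00000026728, GRCm38 chromosome 2, 13573927 to 13582826, plus strand, protein-coding). Vim stood at 1541.4, 1611.0, 1467.3 and 1719.3 CPM in control replicates 1 to 4 and at 774.2, 662.3, 754 and 674.6 CPM in Ikzf1 replicates 1 to 4. Every Ikzf1 library lay below every control, and no library of one group came close to the other. The fitted log2 fold change was -1.15 (standard error 0.06). Vim had the highest level of the 9 genes in every library and in the controls was exceeded by only 0.115% of tested genes in CPM. Its TPM was 2165 ± 171 in the controls and 837 ± 44.6 with Ikzf1 (SD, n = 4 each).

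Nes encodes nestin, the large filament protein used as a marker of neural progenitors (ENSMUSG00000004891, GRCm38 chromosome 3, 87971078 to 87980451, plus strand, protein-coding). Nes stood at 466.7, 513.6, 496.3 and 524.7 CPM in control replicates 1 to 4 and at 160.9, 144.4, 160.4 and 141.8 CPM in Ikzf1 replicates 1 to 4. The highest Ikzf1 library was far below the lowest control. The fitted log2 fold change was -1.72 (standard error 0.05), a 3.29-fold lower level. The ratio of Nes to Vim in TPM was 0.0733 to 0.0834 in the controls and 0.0499 to 0.0526 with Ikzf1, so nestin was also lower relative to vimentin.

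Synm encodes synemin, a large filament protein that joins vimentin filaments and links them to other structures of the cell (ENSMUSG00000030554, GRCm38 chromosome 7, 67730160 to 67759742, minus strand, protein-coding). Synm stood at 89.6, 99.07, 90.86 and 97.41 CPM in control replicates 1 to 4 and at 27.94, 26.18, 28.61 and 28.04 CPM in Ikzf1 replicates 1 to 4. The Ikzf1 values were tightly grouped and all lay far below the lowest control. The fitted log2 fold change was -1.77 (standard error 0.05), close to that of Nes. The whole of Synm lies within the span of Ttc23 on the other strand, a gene with 11.2 CPM in the controls and 6.43 CPM with Ikzf1 (-0.80 on the log2 scale), and the part of shared reads was not tested.

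Gfap encodes the filament protein of astrocytes (ENSMUSG00000020932, GRCm38 chromosome 11, 102887336 to 102900912, minus strand, protein-coding). Gfap stood at 1.185, 1.349, 1.775 and 1.072 CPM in control replicates 1 to 4 and at 0.972, 0.7868, 0.9152 and 0.8103 CPM in Ikzf1 replicates 1 to 4. These levels rest on 30 to 49 reads per control and 18 to 23 per Ikzf1 library. The groups did not overlap, but Gfap was the only one of the 9 genes outside the threshold of edgeR, with a log2 fold change of -0.63 (standard error 0.28). Its sign depended on the handling of transcript length: with an offset for average transcript length the log2 fold change was 0.07, and in the authors' deposited table it was 0.05. A direction for Gfap is therefore not given. Without control replicate 4 Gfap passed, at -0.72, and with any other single library left out it did not, at -0.46 to -0.68.

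In order of TPM in the controls, Vim came first, followed by Nes (166 ± 8.48), Nefm (135 ± 3.78), Nefl (69.0 ± 1.37), Synm (28.3 ± 2.07), Ina (24.3 ± 1.67), Prph (11.1 ± 0.347), Gfap (2.29 ± 1.36) and Nefh (1.94 ± 0.462; SD, n = 4). The values of Synm and Ina overlapped between libraries, as did those of Gfap and Nefh, so neither pair has a firm order. In the Ikzf1 libraries the order after Vim was Nefm (48.3 ± 2.696), Nes (43.2 ± 2.57), Ina (38.4 ± 3.35), Prph (13.6 ± 1.95), Nefl (9.50 ± 0.834), Synm (6.996 ± 0.648), Nefh (4.12 ± 0.675) and Gfap (2.08 ± 1.04; SD, n = 4). There Nefm and Nes overlapped, and so did Nes and Ina. Nefl stood above Prph, Ina and Synm in every control and below Ina and Prph in every Ikzf1 library. Vim nevertheless took about the same part of the summed TPM of the 9 genes in both groups, 82.1 to 84.1% and 82.2 to 84.3%.

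The transcripts of the progenitor and glial genes were examined for a change in their mixture. For Vim, the transcript of 2193 bases held 61.3 to 67.1% of the reads in the controls and 63.2 to 72.7% with Ikzf1, and for Nes the one of 5958 bases held 65.8 to 77.8% and 67.5 to 72.5%. Both ranges overlap. Of the rarer Vim transcripts, those of 926 and 574 bases had shares that did not overlap, 0.847 to 1.75% in the controls and 0.498 to 0.729% with Ikzf1 for the first, and 0.0109 to 0.0267% and 0.0347 to 0.211% for the second, which rests on 4 to 32 reads per library. For Synm, the longest transcript, of 7818 bases, held 54.4, 49.8, 52.2 and 43.0% of the reads in control replicates 1 to 4. In Ikzf1 replicates 1 to 4 it held 38.7, 35.2, 50.9 and 29.8%. Its range overlapped between the groups because of Ikzf1 replicate 3. The log2 ratio of this transcript alone was -2.13 and that of the transcript of 6953 bases was -1.31, so the lower level of Synm was seen in both.

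**Figure D4:**
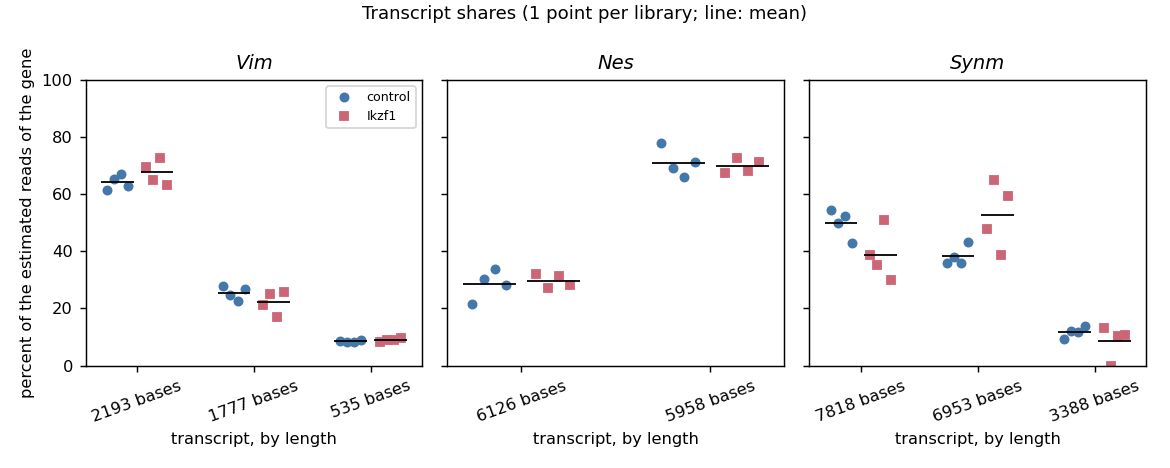
Percent of the estimated reads of Vim, Nes and Synm in each transcript that held at least 5% in the controls, named by its length in bases, with 1 point per library (circles for control, squares for Ikzf1) and a line at the mean. The shares drawn for Vim and Nes overlap between the groups, and the 7818-base transcript of Synm ranges from 43.0 to 54.4% in the controls and from 29.8 to 50.9% with Ikzf1.

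The markers of cell types that carry these filaments were set beside them, with log2 fold changes in parentheses and summed levels for the controls first and Ikzf1 second. Of 12 ganglion cell markers, 9 were tested, and 6 rose and 2 fell (edgeR adjusted p under 0.05), where 59.4% of all tested genes passed, 29.4% higher and 30% lower, with a summed level of 65.2 to 73.4 CPM in the controls and 110 to 121 CPM with Ikzf1. Sncg, the gene of gamma-synuclein, rose by 3.01 on the log2 scale (edgeR adjusted p 2.33e-18). Ebf3, a transcription factor and the most abundant marker of the list in controls, fell by 0.48 (edgeR adjusted p 4.80e-06), and Thy1, a surface protein named here after its value was seen, fell by 0.75 (edgeR adjusted p 0.000978). Pou4f2 and Slc17a6 were under 0.5 CPM in both groups and were not tested. The higher sum rested largely on Sncg, Rbpms and Pou4f1, while Ebf3 and Thy1 fell. Sncg went from 2.64 to 21.3 CPM, Rbpms from 9.31 to 23.5 CPM and Pou4f1 from 4.40 to 18.3 CPM. Rbpms and Pou4f1 are named here after their values were seen. What these markers say about ganglion cells or about the level of Nefl was not tested. Of 6 horizontal cell markers, 5 were tested, and 2 fell, the transcription factor Prox1 (-0.38) and the calcium-binding protein Calb1 (-1.04). None rose by edgeR, where Tfap2b, at 0.19, had an unadjusted p of 0.0335 and an adjusted p of 0.0557. The sums were 279 to 317 and 278 to 297 CPM. Of 8 amacrine markers, 5 of 7 tested fell, among them the transcription factor Tfap2a (-0.34) and Gad1 (-1.59), an enzyme that makes GABA, with sums of 167 to 196 and 137 to 158 CPM. Without Ikzf1 replicate 1, Tfap2a was outside the threshold (edgeR adjusted p 0.0560). Of 8 photoreceptor markers, 7 fell, among them Otx2 (-0.41) and Prdm1 (-1.23), transcription factors of newborn photoreceptors, with sums of 792 to 914 and 460 to 523 CPM. The counts of these 4 marker lists rest on 5 to 9 tested genes each and are to be read beside the same shares of all tested genes.

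For the progenitor and glial filament genes, 7 of the 12 progenitor markers fell and 2 rose, with Ccnd1 at -0.94, where 30% of all tested genes were lower and 29.4% higher. The 2 that rose, named after their values were seen, were Pax6 (0.32) and Mki67 (0.13, with groups that overlap), and 3 were not called. Of 11 Müller glia markers, 6 of 10 tested fell and 1 rose, with sums of 974 to 1069 and 829 to 869 CPM. Aqp4, a water channel of mature Müller glia, was below the mean of 5 counts needed to be tested. Sox9, a gliogenic transcription factor, fell by 1.95, while Slc1a3, a glutamate transporter of glia, rose by 0.31. Of 7 astrocyte markers, 2 of 5 tested fell, the transcription factor Pax2 (-1.20) and the chemokine Cxcl14 (-0.83), with sums of 27.8 to 30.0 and 17.8 to 21.1 CPM, and S100b and Gjb6 were not tested either. Of 7 endothelial markers, 2 of 5 tested fell, the receptor genes Kdr (-1.02) and Tek (-1.19). Kdr, a VEGF receptor, is also known from retinal progenitors. Kdr made up most of the endothelial sum, 403 to 473 and 208 to 248 CPM. Tek and Cldn5 were under 1 CPM in both groups. Of 6 pericyte and mesenchyme markers, 2 of 4 tested fell, with sums of 19.3 to 23.6 and 5.41 to 6.41 CPM. Col1a1, a fibrillar collagen, fell by 2.11 and Cspg4, named after its value was seen, fell by 1.37. Microglia markers summed to 1.23 to 1.35 and 0.716 to 1.62 CPM, with 0 of 2 tested genes called, also at an unadjusted p under 0.05, and Csf1r at -0.13. Pigment epithelium markers summed to 8.18 to 9.35 and 3.58 to 5.29 CPM, where Mitf, a transcription factor of pigment cells, fell by 1.39 and Rpe65 was listed at 0. The 5 lens markers were all under a mean of 5 counts, and Crygs and Lim2 were listed at 0. Several of these lists had few tested genes and a share of lower genes near the 30% of all tested genes, so nothing about the cell types is read from those counts. The part of these cell types in the levels of the filament genes was not tested.

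Other members of the filament superfamily were followed in a list of 19 genes, mainly keratins and nuclear lamins. Of these, 14 were tested, and 3 rose and 5 fell, with a median log2 fold change of -0.18 against 0.00 for all tested genes. Lmna, the gene of the A-type lamins that line the nucleus, fell from 353 ± 8.18 to 77.8 ± 3.70 CPM (log2 fold change -2.18, edgeR adjusted p 1.05e-24). Krt18, a keratin of simple epithelia, fell by 2.10 and its usual partner Krt8 fell by 1.71 on the log2 scale, from 18.3 and 22.1 CPM (edgeR adjusted p 1.47e-15 and 6.95e-16). Krt19, a further keratin of simple epithelia, fell by 1.75 from 2.27 CPM (edgeR adjusted p 4.22e-06). Keratin genes have close relatives and pseudogenes, so their values are uncertain where reads could be split among them. The genes that rose included Sync, which encodes syncoilin, from 2.50 ± 0.387 to 7.71 ± 0.729 CPM (log2 fold change 1.62, edgeR adjusted p 1.19e-10), and Iffo2, at 0.33 (edgeR adjusted p 7.96e-05).

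A second list held 35 genes whose products bind, transport or modify filaments, and all 35 were tested. Of these, 11 rose and 16 fell, with a median of 0.02. Ppl, encoding periplakin, a linker of filaments to cell junctions, fell from 28.3 ± 1.00 to 3.16 ± 0.576 CPM (log2 fold change -3.16, edgeR adjusted p 1.75e-20). Dsp, encoding desmoplakin, a linker of the same protein family, rose from 2.72 ± 0.418 to 12.3 ± 0.895 CPM (log2 fold change 2.17, edgeR adjusted p 1.12e-14). Eppk1, encoding epiplakin, fell by 1.97 from a level of 1.96 CPM (edgeR adjusted p 6.38e-06). The small heat shock genes Hspb1 and Hspb8 fell, with log2 fold changes of -1.998 and -1.44 (edgeR adjusted p 4.20e-15 and 3.69e-06). Capn1, a calcium-dependent protease, rose by 1.79 from 3.96 ± 0.229 to 13.7 ± 0.842 CPM (edgeR adjusted p 2.20e-14).

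The last list, of 24 microtubule and axon cytoskeleton genes of neurons, had 23 tested, 9 of which rose and 10 fell, with a median of -0.05. Map1a, a microtubule-associated protein of mature neurons, rose from 65.1 ± 4.16 to 216 ± 18.1 CPM (log2 fold change 1.73, edgeR adjusted p 8.71e-18). Dcx, encoding doublecortin, fell by 1.13 (edgeR adjusted p 0.000116), and Gap43, a growth cone protein, fell from 132 ± 5.50 to 75.7 ± 4.77 CPM (log2 fold change -0.80, edgeR adjusted p 2.85e-14). Ank3, an anchor protein of the axon initial segment, fell by 0.79, and the tubulin-binding stathmin genes Stmn2 and Stmn3 fell by 0.67 each (edgeR adjusted p 2.06e-14, 4.58e-11 and 8.09e-09). Members of this list were thus found in both directions, as were all tested genes, of which 29.4% were higher and 30% lower. Of the genes named here, chosen by size of change, only Map1a rose. In each of the 3 lists the share that passed is to be read beside the 59.4% of all tested genes.

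**Figure D5:**
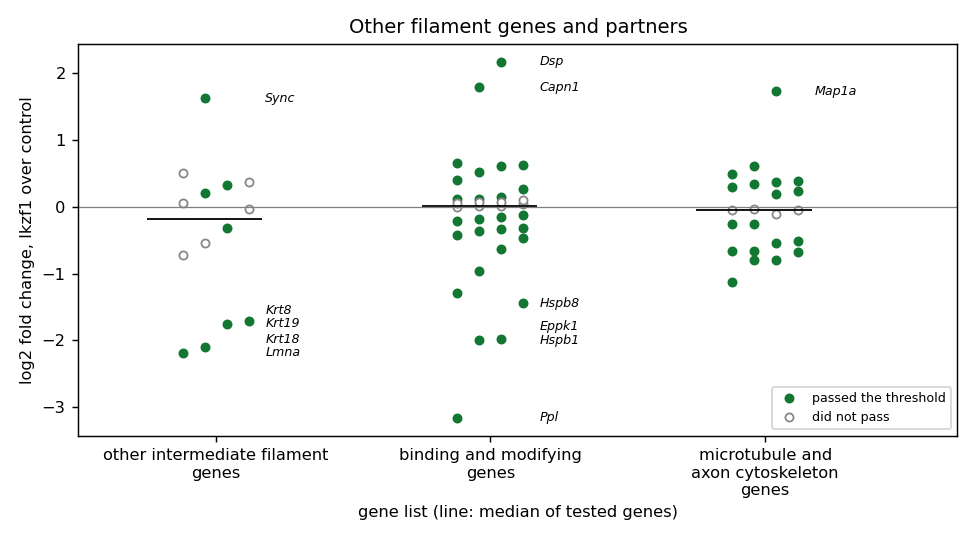
Log2 fold change of Ikzf1 over control for the tested genes of 3 lists, with filled points for genes that passed an edgeR adjusted p of 0.05, open points for those that did not and a line at the median. Lmna, Krt18, Ppl and Hspb1 lie near or below -2, Dsp lies above 2, and the 3 medians lie between -0.18 and 0.02.

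The genes with a pattern most like that of Nefl were sought by the Pearson correlation of log2 CPM over the 8 libraries, among 10095 genes with a mean of at least 10 CPM. The closest were Rras (r = 0.9997), Tgfbi, Itga5, Eda2r and Cdkn1a (r = 0.9992), with log2 fold changes of -2.58, -1.91, -2.16, -1.77 and -2.27. For Vim they were Aldh1a3 (r = 0.9988), Ctnna1, Gap43, Axl and Aif1l (r = 0.9979), with log2 fold changes of -1.82, -0.71, -0.80, -1.78 and -1.31. With 2 groups so far apart, such values rest largely on that difference, in the same libraries: 341 genes reached an r of 0.99 with Nefl and 200 with Vim.

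The authors' deposited table gives log2 fold changes of -2.61 for Nefl, -1.25 for Nefm, 1.23 for Nefh, 0.88 for Ina and 0.51 for Prph. They were -1.13 for Vim, -1.70 for Nes and -1.77 for Synm, again in the authors' deposited table. These come from the same reads and the same transcript estimates as the values above, and the gene sums were matched to the means of that table. That both place the genes alike apart from Gfap was therefore largely fixed beforehand. It is no separate support.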

How the data were processed

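The RNA-seq files hold expected counts (estimated read pairs) and TPM per transcript, which the authors obtained from Salmon according to the submitters' processing notes (per the labels too); the version and index are not given in the sources used here. The authors' deposited comparison gives, per the file headers, a mean signal (normalised count), a log2 ratio and its error, a Wald score and p-values, from DESeq2 per the labels. The CUT&RUN peak lists were not used here, since no annotation of their build was at hand.

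Transcripts were joined to genes through the mean normalised count of that table: a gene was given the run of up to 60 neighbouring transcripts whose sum gave its mean within a relative tolerance of 5e-09. Where the mean was 5 or more, 16641 of 16815 genes were joined, holding 99.9% of reads, and 85 genes found a run after their means were shifted slightly. All 9 genes described were joined. Counts were summed and rounded, filtered with filterByExpr, scaled by TMM and compared with edgeR 4.0.16 (quasi-likelihood F test, robust, two-sided, no covariate, Benjamini-Hochberg adjustment). Standard errors were derived from the log2 fold change and the F statistic. The join and the fit were tested on simulated data. The simulated counts held far fewer changed genes than were called here, so they do not give the error rate of the fit in these data. DESeq2 1.42.0 was an alternative. Replicates of a group differed beyond counting noise (chi-square per gene 4.10 to 9.89), so none was the same library deposited again; whether libraries came from separate cultures or animals was not tested.

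The genes, lists and tests were chosen with earlier results of these data known. Named genes are the 9, up to 6 called genes of largest change with at least 1 CPM from each of 3 lists, and the most abundant and most changed marker of each of 12 cell types. Of these, 1 marker is not reported here. Promoter sequences are those of RefSeq (GRCm38.p6). The p-values set the difference between groups against the spread between libraries, and counts limit the precision of low genes. Whether that spread is one between animals or cultures is not known.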

Additional observations from a re-analysis of the deposited data

Results flagged for a closer look

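In 10 of 92 groups of 4 libraries, over 46 genes, 1 library stood far from the other 3, by a gap that took most of the range of the group (above Dixon's limit for 4 values). By chance, about 1 in 20 groups would be found this way. Among the 9 filament genes this was 1 of 18 groups: in Nefh, control replicate 4 had 5.29 CPM and the other controls had 3.31 to 3.56. In Lmna, Ikzf1 replicate 4 had 72.3 CPM and the others had 79.5 to 79.9. Ppl was lowest in control replicate 1, at 26.8 against 28.8 CPM in the others, and highest in Ikzf1 replicate 3, at 4.02 against 2.82 to 2.96 CPM. In Capn1, Ikzf1 replicate 3 stood at 14.96 against 13.1 to 13.4 CPM. In Stmn3, control replicate 1 stood at 34.5 against 29.8 to 30.4 CPM. Prox1 was highest in Ikzf1 replicate 4, at 103.6 against 99.4 to 100 CPM. Prdm1 was highest in control replicate 1, at 217.5 against 182 to 186 CPM, and in Ikzf1 replicate 4, at 92.0 against 77.5 to 79.5 CPM. Tek was lowest in control replicate 2, at 0.609 against 0.830 to 0.869 CPM.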

How the results depend on the processing

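Of the 9 filament genes, 8 passed the threshold under every alternative fit, with 3 higher and 5 lower, and 9 passed without control replicate 4, where Gfap was added. In the main fit 59.4% of all tested genes passed. The 9 genes were chosen with this contrast known and every fit uses the same libraries. These counts therefore describe only how the calls depend on the processing. Gfap turned to 0.0673 with the offset for average transcript length and was at 0.51 in its 356-base transcript alone. With the ratio of deposited TPM, which is lowered by the Ikzf1 reads, Nefl stood at -2.86, Nefm at -1.48, Nefh at 1.09, Ina at 0.66, Prph at 0.29, Vim at -1.37, Nes at -1.94, Synm at -2.02 and Gfap at -0.14. Over all genes, 9265 passed, 7888 with the length offset, 9328 with no filter on low counts, 9121 with DESeq2 and 8669 to 9063 with 1 library left out. With the replicate number as a block, 8936 genes passed. Same-numbered libraries of both groups had correlations of -0.192, -0.0139, 0.147 and -0.00652 over 10104 genes, and not every library correlated best with its own number, so the numbers were not taken as a pairing, and the block changed no call among the 9 genes. The lists kept counts of 8, 23 to 27 and 19 genes. Among markers, Csf1r (-0.13) ranged from -0.49 to 0.11 with 1 library left out. Tfap2a, with an edgeR adjusted p of 0.0140, was outside the threshold without Ikzf1 replicate 1 (0.0560). Gfap had 18 to 49 reads per library; the cause of its change in sign under the length offset was not tested.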

Other observations

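Genes of related function in the lists, chosen here after their values were seen, split by member. Among the lamins of the nuclear envelope, Lmna fell by 2.18 on the log2 scale, Lmnb2 fell by 0.31 from 49.6 ± 2.96 to 39.8 ± 1.78 CPM, and Lmnb1 rose by 0.21 from 229 ± 10.1 to 264 ± 5.57 CPM (edgeR adjusted p 1.05e-24, 2.60e-05 and 0.000117; SD, n = 4). Among the kinesin heavy chains that carry neurofilaments and other cargo along axons, the neuronal forms rose, Kif5a from 52.4 ± 3.37 to 82.6 ± 3.93 CPM (0.66) and Kif5c from 157 ± 4.36 to 206 ± 13.6 CPM (0.40), while the widely expressed Kif5b fell by 0.13, with groups that overlap (edgeR adjusted p 1.32e-11, 2.14e-08 and 0.0174). The calpain proteases also parted, with Capn1 higher by 1.79 and Capn2 lower, from 359 ± 13.0 to 231 ± 10.01 CPM (-0.63, edgeR adjusted p 4.76e-13). Plec, encoding plectin, the linker of vimentin filaments to other parts of the cytoskeleton and the most abundant gene of the list in controls, fell from 1010 ± 30.7 to 519 ± 44.6 CPM (-0.96, edgeR adjusted p 5.10e-15).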
